A study of Mus musculus with 6 samples.

Results

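The proteasome genes were taken as the protein-coding genes whose symbol in GENCODE M21 begins with Psma to Psmg followed by a digit, together with Nfe2l1, and this rule found 51 of the 54446 genes in the table. They were measured by poly(A) RNA-seq in TRAMP-C2, a prostate cancer cell line from a C57BL/6 male mouse of the TRAMP model, whose prostate tumours are driven by a viral oncogene under the probasin promoter. Of the 6 libraries, 2 came from cells without drug (control), 2 from cells with 2 µM oxaliplatin and 2 from cells with 2 µM cisplatin, all for 24 h. All groups grew in the same medium, DMEM with serum, NuSerum, insulin and dehydroisoandrosterone, and no gene was deleted in any of them. Both drugs are platinum compounds that damage DNA, and oxaliplatin carries a diaminocyclohexane ligand and an oxalate leaving group where cisplatin has ammine and chloride ligands. Nothing in the labels says whether replicates were separate cultures, so the p-values measure the spread between these libraries, which may be technical. The libraries held 21345312 to 24041767 counts, and the limit that a count of 0 allows, 3 counts, corresponded to 0.125 to 0.141 CPM (counts relative to each library's total).

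The labelled cell type was checked against marker genes. Of the prostate luminal markers, Pbsn was at 0 in all 6 libraries and Tmprss2 and Hoxb13 had at most 3 counts in each. The 5 epithelial markers, of which Krt5 was at 0 and Epcam had at most 3 counts, summed to 28.2 to 29.9 CPM in control, 27.7 to 28.3 CPM in oxaliplatin and 36.9 to 37.3 CPM in cisplatin libraries, whereas the 4 mesenchymal markers Vim, Fn1, Cdh2 and Zeb1 summed to 6938 to 7719 CPM over all libraries. The 5 leukocyte markers had at most 3 counts each in every library, with Adgre1 at 0, and their sum was 0 to 0.129 CPM. The endothelial pair summed to 0.0893 to 0.387 CPM, with Cdh5 at or under 3 counts.

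The proteasome is the main machine that degrades ubiquitin-tagged proteins in the cytosol and nucleus. Its core is a barrel of alpha and beta rings whose Psmb5, Psmb6 and Psmb7 subunits cut proteins, and its regulatory cap binds ubiquitin, removes it and unfolds the substrate with a ring of ATPases. Interferon-induced cells exchange the cutting subunits for Psmb8, Psmb9 and Psmb10, the immunoproteasome, which favours peptides for presentation on MHC class I. Nfe2l1 encodes Nrf1, the transcription factor that raises proteasome genes when proteasome activity is limiting.

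Because these genes share transcriptional control in textbook accounts, their promoters were read from RefSeq (GRCm38.p6). Of the 51 genes, 43 matched an entry, with 300 bases from 250 before to 50 after the start. Windows are shown for 5 genes with different responses, chosen after their values were seen among windows that overlap no annotated exon: Psmb6, a catalytic subunit that passed no test, Psmd2 and Psmd14 of the cap, which were lower with oxaliplatin than with cisplatin, Psme3, which rose with both drugs, and Psmg1, the gene that was higher with oxaliplatin than with cisplatin. Each line gives the 250 bases before the start, 5′ to 3′ on the gene's strand, and capitals mark matches to the searched motifs.
Psmb6: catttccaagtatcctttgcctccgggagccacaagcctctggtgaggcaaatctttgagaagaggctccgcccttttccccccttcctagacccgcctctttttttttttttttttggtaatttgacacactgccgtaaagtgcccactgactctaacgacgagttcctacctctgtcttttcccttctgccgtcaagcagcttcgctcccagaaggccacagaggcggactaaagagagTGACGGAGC
Psmd2: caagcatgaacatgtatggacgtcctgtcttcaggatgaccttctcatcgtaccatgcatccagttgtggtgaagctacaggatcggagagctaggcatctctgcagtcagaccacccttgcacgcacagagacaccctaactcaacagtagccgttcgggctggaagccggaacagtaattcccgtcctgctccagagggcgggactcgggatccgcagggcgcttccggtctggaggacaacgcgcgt
Psmd14: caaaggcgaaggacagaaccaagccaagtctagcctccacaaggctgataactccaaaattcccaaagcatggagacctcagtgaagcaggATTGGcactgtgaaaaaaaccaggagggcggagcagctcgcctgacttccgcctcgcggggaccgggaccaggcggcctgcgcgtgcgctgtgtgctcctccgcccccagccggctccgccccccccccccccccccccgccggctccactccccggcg
Psme3: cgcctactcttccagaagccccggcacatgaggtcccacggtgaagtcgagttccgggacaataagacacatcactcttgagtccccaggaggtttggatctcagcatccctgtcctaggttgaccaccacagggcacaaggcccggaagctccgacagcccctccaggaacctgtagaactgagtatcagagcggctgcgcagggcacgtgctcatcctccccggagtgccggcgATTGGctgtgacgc
Psmg1: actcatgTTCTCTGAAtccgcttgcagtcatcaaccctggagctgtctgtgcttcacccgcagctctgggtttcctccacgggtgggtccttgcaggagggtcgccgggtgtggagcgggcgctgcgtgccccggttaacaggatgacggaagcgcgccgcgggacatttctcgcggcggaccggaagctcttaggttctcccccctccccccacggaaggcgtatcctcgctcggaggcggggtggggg
The windows lie at chr11:70525107-70525356, plus strand, chr16:20651402-20651651, plus strand, chr2:61711444-61711693, plus strand, chr11:101315963-101316212, plus strand and chr16:95990961-95991210, minus strand, in the order shown. In Psmb6 the capitals mark the antioxidant response element core (ARE, TGACNNNGC) that Nrf1 and its relative Nrf2 bind, 9 to 1 bases before the start. Psmd14 and Psme3 held CCAAT on the opposite strand, 159 to 155 and 14 to 10 bases before the start, and Psmg1 held the STAT-type GAS (TTCNNNGAA) 243 to 235 bases before it. The bases printed for Psmd2 held none of the motifs searched, and its GAS match lies in the bases after the start. Over the 300-base windows and both strands, the ARE core was in 6 of 43 proteasome genes (14.0%) and in 14.0% of all 27025 genes with a window. CCAAT was in 16 (37.2%, against 41.1% of all genes), the interferon-type ISRE core GAAANNGAA in 7 (16.3%, against 9.76%), GAS in 3 (6.98%, against 9.55%) and the cyclic AMP response element TGACGTCA in 0 (against 2.03%). The motifs can overlap each other, and GAS and the cyclic AMP element read the same on both strands and were counted once. A match describes letters only.

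With oxaliplatin the proteasome genes were mostly lower than in control, and with cisplatin mostly higher. Their share of all counts was 0.793% and 0.771% in the control libraries, 0.715% and 0.729% with oxaliplatin and 0.829% and 0.819% with cisplatin, with no overlap between the 3 groups. Values below are counts normalised by DESeq2 size factors, differences are log2 fold changes with their standard error, and p-values are from the DESeq2 Wald test with Benjamini-Hochberg adjustment over all 14956 genes tested, with a threshold of 0.05. Of the 51 genes, 49 passed the filter on low counts. In such bulk samples, fewer cells of a type and less RNA per cell cannot be told apart. The order of the group means was cisplatin, control, oxaliplatin from high to low in 26 of the 49 genes and cisplatin, oxaliplatin, control in 13. The share of each order over all genes was not counted, so these counts alone do not set the proteasome genes apart.

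**Figure D1:**
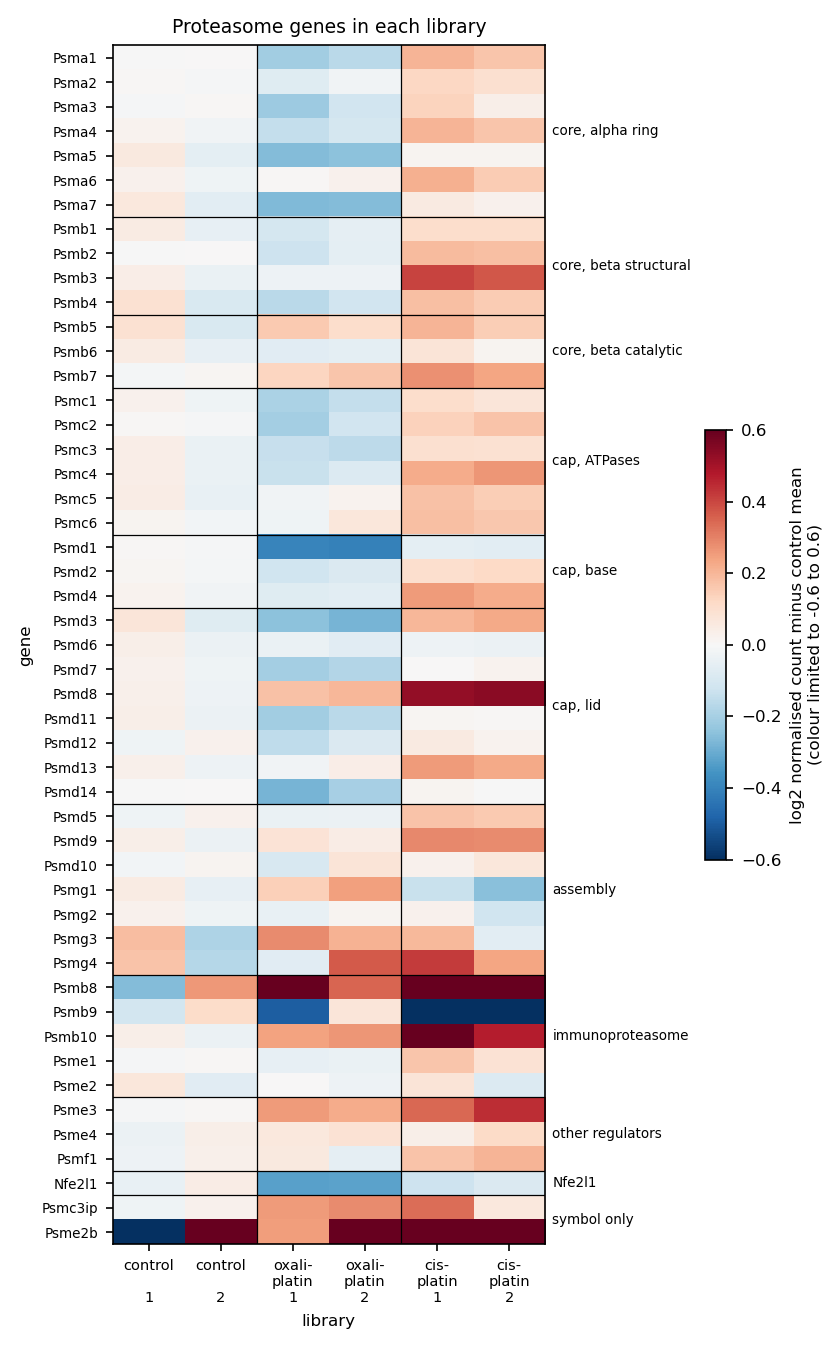
Heat map of the 49 tested proteasome genes (rows, grouped by role) in each of the 6 libraries (columns). Colour is log2 of the normalised count plus 0.5, minus the mean of the control libraries, limited to -0.6 to 0.6. Most core and cap genes are blue with oxaliplatin and red with cisplatin, Psmd8, Psmb10 and Psme3 are red with both drugs, and Psmb8, Psmb9 and Psme2b vary strongly within groups at low counts.

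Against control, oxaliplatin changed 17 of the 49 genes, of which 14 fell and 3 rose (Psmb7, Psmd8 and Psme3). That is 34.7%, against 20.2% of all genes tested (10.7% higher and 9.5% lower). The median log2 fold change of the 49 genes was -0.045, and that of all genes was -0.0029. Proteasome genes are abundant, and among the 4959 genes with a mean normalised count of 1000 or more, a limit chosen after seeing the data, 16.6% were lower, compared with 14 of 37 proteasome genes (37.8%). The libraries of the 2 groups did not overlap in 26 genes that were lower and 11 that were higher, as was so for 32.7% and 32.1% of all genes tested. The falls of Psmd1, Nfe2l1 and Psmd3 were the largest among the called genes. The count of 17 fell whichever of the 6 libraries was left out, most of all without oxaliplatin replicate 1. The count over all genes fell too and was also lowest there, and the excess of proteasome genes over all genes was smaller in that fit. The falls of Psma5, Psma7, Psmd1, Psmd3 and Nfe2l1 were called whichever of the 6 libraries was left out.

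Cisplatin raised 21 of the 49 genes and lowered 0 (42.9%, against 28.1% of all genes tested, 15.7% of them higher and 12.4% lower). With edgeR 24 were called higher and 2 lower, where it called 40.9% of all genes. The median log2 fold change was 0.16, against -8.3e-04 over all genes. Among genes with means of 1000 normalised counts or more, 33.0% of all and 19 of 37 proteasome genes (51.4%) were higher. Libraries did not overlap in 34 genes with cisplatin higher and 4 with cisplatin lower, against 34.6% and 34.8% of all genes tested. Among the called genes Psmb10, Psmd8 and Psme3 rose most. Leaving out each of the 6 libraries in turn lowered this count and the count over all genes, and the count of members fell most without control replicate 2. In that fit all called members were higher, but the share called in either direction was below that over all genes. Psmb3, Psmb7, Psmb10, Psmd4, Psmd8 and Psme3 were called in every one of these 6 fits. Under total-count scaling 14 rose and 3 fell (Nfe2l1, Psmd1 and Psmg1), so the split between directions depended on the scaling.

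The drugs were then compared with each other at the same dose and time. Oxaliplatin libraries were lower than cisplatin libraries in 31 of the 49 genes and higher in 1, Psmg1 (65.3% called, against 19.9% of all genes tested, 8.62% of them higher and 11.3% lower). The median difference was -0.20 on the log2 scale, against -0.0033 over all genes. Of the genes at or above that mean of 1000 normalised counts, 24.3% were lower, compared with 30 of 37 proteasome genes (81.1%). The drugs' libraries did not overlap in 38 genes with oxaliplatin lower and 3 with oxaliplatin higher, against 34.5% and 33.5% of all genes tested. Among the called genes that were lower with oxaliplatin, Psmd3, Psmb3 and Psma1 differed most. The number called fell whichever of the 6 libraries was left out, and so did the number over all genes. The calls of 18 genes, 7 of the core, 10 of the cap and Nfe2l1, held whichever library was left out. The control libraries enter both comparisons with control, so those results are given side by side and not counted together.

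**Figure D2:**
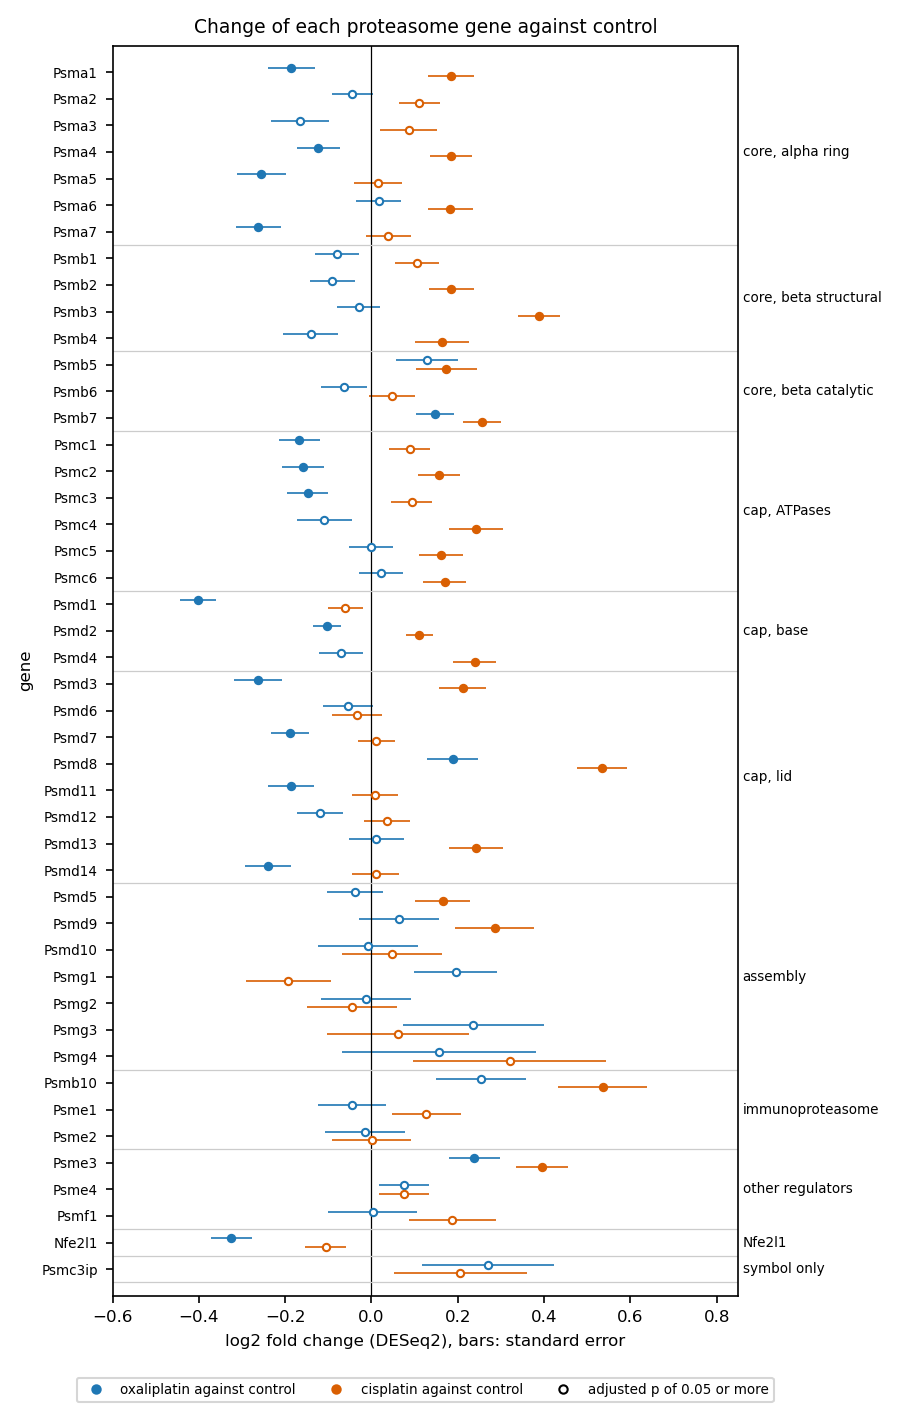
Log2 fold change (horizontal axis) of each proteasome gene (vertical axis, grouped by role) with oxaliplatin (blue) and cisplatin (orange) against control. Bars are standard errors, filled points have an adjusted p under 0.05, and Psmb8, Psmb9 and Psme2b are left out because of their wide errors. Blue points lie left of the orange ones in every core and cap gene. Psmg1, Psmg2, Psmg3 and Psmc3ip have the opposite order, and of these only Psmg1 passed the test between the drugs.

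The alpha ring, whose Psma1 to Psma7 subunits gate the core, was lower with oxaliplatin than with cisplatin in 7 of 7 genes, with log2 differences of -0.37 to -0.16. Against control, 4 of 7 fell with oxaliplatin (range of all 7 genes -0.26 to 0.017) and 3 of 7 rose with cisplatin (0.015 to 0.19). Of all genes tested, 9.5% fell and 10.7% rose with oxaliplatin, and 15.7% rose and 12.4% fell with cisplatin. Between the drugs 11.3% were lower and 8.62% higher with oxaliplatin, and these shares are the background for each role. Psma1 (chr7:114264606-114276118) had normalised counts of 3251 and 3256 in control, 2814 and 2909 in oxaliplatin and 3749.7 and 3648 in cisplatin libraries. The oxaliplatin libraries were lowest, the cisplatin libraries highest, and no groups overlapped. Its log2 fold change was -0.19 ± 0.054 (SE, adjusted p = 0.00405) with oxaliplatin, 0.19 ± 0.053 (SE, adjusted p = 0.00286) with cisplatin, and -0.37 ± 0.054 (SE, adjusted p = 2.19e-10) between the drugs. The oxaliplatin call was lost without control replicate 1 (adjusted p = 0.0728), control replicate 2 (adjusted p = 0.0857), oxaliplatin replicate 1 (adjusted p = 0.211) or oxaliplatin replicate 2 (adjusted p = 0.0751). The cisplatin call was lost without control replicate 1 (adjusted p = 0.0592), control replicate 2 (adjusted p = 0.0635), cisplatin replicate 1 (adjusted p = 0.144) or cisplatin replicate 2 (adjusted p = 0.0587).

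Psma4 (chr9:54950790-54958030), another alpha ring gene, had counts of 4409 and 4277 in control, 3934 and 4041 in oxaliplatin and 4999.6 and 4867 in cisplatin libraries, again in separate groups. It differed by -0.12 ± 0.049 (SE, adjusted p = 0.0496) with oxaliplatin, at the edge of the threshold, by 0.18 ± 0.049 (SE, adjusted p = 0.00106) with cisplatin, and by -0.31 ± 0.049 (SE, adjusted p = 1.13e-08) between the drugs. The oxaliplatin call was lost in 12 of 14 alternative fits, with adjusted p up to 0.441, among them without control replicate 1 (adjusted p = 0.352), control replicate 2 (adjusted p = 0.142), oxaliplatin replicate 1 (adjusted p = 0.441), oxaliplatin replicate 2 (adjusted p = 0.233), cisplatin replicate 1 (adjusted p = 0.155) or cisplatin replicate 2 (adjusted p = 0.152). With cisplatin, the call was lost without control replicate 2 (adjusted p = 0.0681) or cisplatin replicate 1 (adjusted p = 0.0984). An exon of AY074887 overlaps Psma4 in the annotation, and not all of its counts were whole numbers.

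The structural beta subunits Psmb1 to Psmb4, which hold the inner rings without cutting, were lower with oxaliplatin than with cisplatin in 4 of 4 genes, by -0.42 to -0.19 on the log2 scale. None of them passed the test with oxaliplatin against control (1 of 4 at an unadjusted p under 0.05, and 0 with edgeR), and 3 of 4 rose with cisplatin. Psmb3 (chr11:97703399-97713500) had counts of 4311 and 4092 in control, 4115 and 4117 in oxaliplatin and 5555 and 5436 in cisplatin libraries. Here the oxaliplatin libraries lay within the control range and the cisplatin libraries lay above both. The log2 fold change was -0.029 ± 0.050 (SE, adjusted p = 0.742) with oxaliplatin and 0.39 ± 0.049 (SE, adjusted p = 1.55e-13) with cisplatin, and -0.42 ± 0.049 (SE, adjusted p = 1.99e-15) between the drugs.

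Of the catalytic subunits, 0 of 3 passed between the drugs (2 of 3 at an unadjusted p under 0.05, and with edgeR Psmb7 passed), 1 rose with oxaliplatin and 2 rose with cisplatin. Psmb5 (chr14:54614119-54618022), the chymotrypsin-like subunit, had counts of 3093 and 2724 in control, 3238 and 3119 in oxaliplatin and 3342 and 3216 in cisplatin libraries. Its fold change was 0.13 ± 0.071 (SE, adjusted p = 0.189) with oxaliplatin and 0.17 ± 0.071 (SE, adjusted p = 0.0475) with cisplatin. The control libraries were farther apart than the drug libraries. The cisplatin call was kept in 3 of 14 alternative fits. It was lost with TMM scaling (adjusted p = 0.0562), total-count scaling (adjusted p = 0.174) or no filter on low counts (adjusted p = 0.0616). It was also lost without independent filtering (adjusted p = 0.0535), with the replicate block (adjusted p = 0.0672) or with only the 4 libraries compared (adjusted p = 0.0650). Psmb5 lost its cisplatin call without control replicate 2 (adjusted p = 0.503), oxaliplatin replicate 1 (adjusted p = 0.0969), oxaliplatin replicate 2 (adjusted p = 0.0931), cisplatin replicate 1 (adjusted p = 0.320) or cisplatin replicate 2 (adjusted p = 0.138). Between the drugs Psmb5 differed by -0.045 ± 0.071 (SE, adjusted p = 0.714), with a 95% interval of -0.18 to 0.094.

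Psmb6 (chr11:70525367-70527858), the caspase-like subunit whose promoter holds the ARE core shown above, had counts of 4611 and 4308 in control, 4255 and 4278 in oxaliplatin and 4706 and 4509 in cisplatin libraries. The cisplatin and control libraries overlapped, and the oxaliplatin libraries were the lowest. Its fold change was -0.064 ± 0.054 (SE, adjusted p = 0.442) with oxaliplatin and 0.047 ± 0.054 (SE, adjusted p = 0.557) with cisplatin. Between the drugs it was -0.11 ± 0.054 (SE, adjusted p = 0.122), with a 95% interval of -0.22 to -0.0051.

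Psmb7 (chr2:38588036-38644087), the trypsin-like subunit, had counts of 5387 and 5470.03 in control, 5931 and 6092 in oxaliplatin and 6569 and 6388 in cisplatin libraries. Both drug groups lay above control. It rose by 0.15 ± 0.044 (SE, adjusted p = 0.00534) with oxaliplatin and by 0.26 ± 0.044 (SE, adjusted p = 1.08e-07) with cisplatin. Psmb7 lost its oxaliplatin call without control replicate 1 (adjusted p = 0.0915), oxaliplatin replicate 1 (adjusted p = 0.0969) or oxaliplatin replicate 2 (adjusted p = 0.248). The drugs differed by -0.11 ± 0.044 (SE, adjusted p = 0.0525), with an interval of -0.19 to -0.023. An exon of Nek6 overlaps Psmb7 and Mir686 overlaps Psmb5.

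In the regulatory cap 9 of 17 genes fell and 1 rose with oxaliplatin, and 9 rose with cisplatin. Between the drugs 16 of 17 were lower with oxaliplatin than with cisplatin. Over all genes tested, 9.5% fell and 10.7% rose with oxaliplatin, 15.7% rose with cisplatin and 11.3% were lower between the drugs. Libraries of the 2 drugs did not overlap in 17 of 17 cap genes, and in 13 of 14 core genes, where oxaliplatin was lower (against 34.5% of all genes tested). The median log2 fold change of the cap was -0.12 with oxaliplatin and 0.11 with cisplatin, and that of the core was -0.085 and 0.17. Psmd6, a lid subunit, was the cap gene that did not pass between the drugs, at -0.020 ± 0.058 (SE, adjusted p = 0.853), with an interval of -0.13 to 0.094.

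Of the ATPases Psmc1 to Psmc6, which unfold substrates, 3 fell with oxaliplatin, 4 rose with cisplatin and 6 of 6 were lower with oxaliplatin than with cisplatin. The 6 log2 fold changes ran from -0.17 to 0.023 with oxaliplatin and from 0.088 to 0.24 with cisplatin. Psmc2 (chr5:21785283-21803787) had counts of 5315 and 5262 in control, 4589.9 and 4887 in oxaliplatin and 5829.96 and 5959 in cisplatin libraries, with no overlap between groups. It fell by 0.16 on the log2 scale with oxaliplatin (adjusted p = 0.00780), rose by 0.16 ± 0.049 (SE, adjusted p = 0.00676) with cisplatin, and differed by -0.32 ± 0.049 (SE, adjusted p = 4.89e-09) between the drugs. Psmc2 lost its oxaliplatin call without control replicate 1 (adjusted p = 0.107), control replicate 2 (adjusted p = 0.0759) or oxaliplatin replicate 1 (adjusted p = 0.327). For cisplatin it was lost with total-count scaling (adjusted p = 0.0744), and without either control replicate or either cisplatin replicate.

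The base subunits Psmd1, Psmd2 and Psmd4, scaffolds and ubiquitin receptors, were lower with oxaliplatin than with cisplatin in 3 of 3. Psmd1 (chr1:86064387-86139151) had counts of 6892 and 6817 in control, 5206 and 5170.1 in oxaliplatin and 6587 and 6562 in cisplatin libraries. Both oxaliplatin libraries lay far below the other 4, where cisplatin was slightly below control. The log2 fold change was -0.40 ± 0.041 (SE, adjusted p = 1.04e-20) with oxaliplatin, -0.060 ± 0.040 (SE, adjusted p = 0.270) with cisplatin and -0.34 ± 0.041 (SE, adjusted p = 5.17e-15) between the drugs. Exons of Gm21972 and Htr2b overlap Psmd1.

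Psmd2 (chr16:20651652-20663414), the member with the most counts, had 18817 and 18475 in control, 17171 and 17541 in oxaliplatin and 20017 and 20256 in cisplatin libraries. The groups were separate although the differences were small. They were -0.10 ± 0.032 (SE, adjusted p = 0.00763) with oxaliplatin, 0.11 ± 0.032 (SE, adjusted p = 0.00285) with cisplatin and -0.21 ± 0.032 (SE, adjusted p = 8.47e-10) between the drugs. Psmd2 lost its oxaliplatin call with only the 4 libraries compared (adjusted p = 0.0503). It also lost it without control replicate 1, oxaliplatin replicate 1 or oxaliplatin replicate 2. For cisplatin the call was lost with total-count scaling (adjusted p = 0.117), and without control replicate 2, cisplatin replicate 1 or cisplatin replicate 2.

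Lid subunits, which hold the deubiquitinase Psmd14, were called lower with oxaliplatin than with cisplatin in 7 of 8 genes. Psmd14 itself, whose promoter is shown above, had counts of 3687 and 3691 in control, 3037 and 3213 in oxaliplatin and 3737 and 3689 in cisplatin libraries, lowest with oxaliplatin. It differed by -0.24 ± 0.054 (SE, adjusted p = 1.09e-04) with oxaliplatin, 0.0094 ± 0.054 (SE, adjusted p = 0.924) with cisplatin and -0.25 ± 0.054 (SE, adjusted p = 5.61e-05) between the drugs, and the calls with oxaliplatin and between the drugs were lost without oxaliplatin replicate 1. Psmd3 (chr11:98682554-98695979), a lid scaffold, had counts of 6817 and 6159.7 in control, 5458 and 5349 in oxaliplatin and 7439 and 7586 in cisplatin libraries, in 3 separate groups. Its log2 fold change was -0.26 ± 0.055 (SE, adjusted p = 2.55e-05) with oxaliplatin and 0.21 ± 0.055 (SE, adjusted p = 7.68e-04) with cisplatin, and -0.48 ± 0.055 (SE, adjusted p = 5.45e-16) between the drugs was the largest fall among the members called there. The cisplatin call was lost without control replicate 2 (adjusted p = 0.0619). Gm12356 overlaps an exon of Psmd3.

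Psmd8 (chr7:29174188-29180701), also of the lid, moved the other way with oxaliplatin. Its counts were 2282 and 2193 in control, 2527 and 2572 in oxaliplatin and 3228 and 3254 in cisplatin libraries, so that both drug groups lay above control and cisplatin lay highest. It rose by 0.19 ± 0.059 (SE, adjusted p = 0.00783) with oxaliplatin and by 0.53 ± 0.058 (SE, adjusted p = 2.18e-18) with cisplatin, and the drugs differed by -0.35 ± 0.057 (SE, adjusted p = 4.34e-08). Psmd8 lost its oxaliplatin call with the replicate block (adjusted p = 0.0662). It also lost it without control replicate 2, oxaliplatin replicate 1, oxaliplatin replicate 2, cisplatin replicate 1 or cisplatin replicate 2.

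The 7 assembly factors are chaperones that build the rings and the base. The share called was 0.0% with oxaliplatin, 28.6% with cisplatin and 28.6% between the drugs. Over all genes tested it was 20.2%, 28.1% and 19.9%. With oxaliplatin 0 of 7 passed (1 at an unadjusted p under 0.05, and with edgeR Psmg1 passed), with cisplatin 2 rose (Psmd5 and Psmd9, both base chaperones), and between the drugs 1 was higher (Psmg1) and 1 lower (Psmd5) with oxaliplatin. Neither cisplatin call was kept whichever of the 6 libraries was left out. The call of Psmd5 between the drugs was lost with the replicate block and without any 1 of the 4 drug libraries. The median log2 fold changes of the 7 genes were 0.065, 0.061 and -0.055. Psmg1 (chr16:95979933-95990960) encodes a chaperone of the alpha ring and had counts of 998 and 933 in control, 1067 and 1144 in oxaliplatin and 878 and 810.4 in cisplatin libraries. Oxaliplatin libraries were highest and cisplatin libraries lowest, the reverse of the order of group means in 6 of the 7 alpha ring genes (the mean of Psma6 was lowest in control). It differed from control by 0.19 ± 0.097 (SE, adjusted p = 0.134) with oxaliplatin and by -0.19 ± 0.099 (SE, adjusted p = 0.126) with cisplatin. The cisplatin difference passed with edgeR (adjusted p = 0.0391) and with total-count scaling (adjusted p = 0.0472). The drugs differed by 0.39 ± 0.098 (SE, adjusted p = 6.83e-04). This last call was lost without oxaliplatin replicate 2 (adjusted p = 0.108) or cisplatin replicate 2 (adjusted p = 0.0957).

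Of the immunoproteasome genes, 0 of 5 passed with oxaliplatin (1 at an unadjusted p under 0.05, and with edgeR Psmb10 passed). Only Psmb10 passed with cisplatin, where it rose. Over all genes tested, 20.2% passed with oxaliplatin and 28.1% with cisplatin. Psmb10 (chr8:105935735-105938444), which replaces Psmb7, had counts of 664 and 634 in control, 768 and 779 in oxaliplatin and 982 and 898 in cisplatin libraries. Both drug groups lay above control and cisplatin lay highest. The log2 fold change was 0.25 ± 0.10 (SE, adjusted p = 0.0586) with oxaliplatin, 0.54 ± 0.10 (SE, adjusted p = 2.88e-06) with cisplatin and -0.28 ± 0.10 (SE, adjusted p = 0.0266) between the drugs. The call between the drugs was lost with total-count scaling (adjusted p = 0.0591), with the replicate block (adjusted p = 0.133) and whichever library was left out.

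Psmb8 (chr17:34197721-34201454) and Psmb9 (chr17:34181987-34187764), neighbours in the MHC region, were the subunits with the fewest counts among those tested. Psmb8 had normalised counts of 25.9 and 37.4 in control, 49.2 and 39.9 in oxaliplatin and 72.5 and 55.3 in cisplatin libraries, and Psmb9 had 13.5 and 15.8 in control, 10.2 and 15.4 in oxaliplatin and 7.84 and 4.09 in cisplatin libraries. Psmb8 was lowest in control and highest with cisplatin, whereas Psmb9 was lowest with cisplatin. The differences of Psmb8 were 0.49 ± 0.43 (SE, adjusted p = 0.461) with oxaliplatin and 1.01 ± 0.42 (SE, adjusted p = 0.0539) with cisplatin, with a 95% interval of 0.18 to 1.84 for cisplatin. With edgeR its cisplatin difference passed (adjusted p = 0.0137), as it did under a filter that asked for 10 counts in each library (adjusted p = 0.0359). DESeq2 gave Psmb9 no adjusted p, and its intervals were -1.76 to 1.36 with oxaliplatin and -2.96 to 0.38 with cisplatin. Exons of Tap1 overlap Psmb9 and an exon of Gm20496 overlaps Psmb8.

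The activator subunits Psme1 (chr14:55578123-55581529) and Psme2 (chr14:55587441-55591113), which open the core and are induced by interferon, did not pass the DESeq2 test in any comparison. Psme1 had counts of 1263 and 1278 in control, 1226 and 1236 in oxaliplatin and 1427 and 1348 in cisplatin libraries, with cisplatin above the other groups. Psme2 had 1385 and 1257 in control, 1324 and 1290.5 in oxaliplatin and 1394 and 1248 in cisplatin libraries, and its groups overlapped. Their log2 fold changes were -0.045 ± 0.080 (SE, adjusted p = 0.753) and -0.015 ± 0.092 (SE, adjusted p = 0.940) with oxaliplatin, and 0.13 ± 0.079 (SE, adjusted p = 0.227) and 5.9e-04 ± 0.092 (SE, adjusted p = 0.998) with cisplatin. Between the drugs Psme1 differed by -0.17 ± 0.079 (SE, adjusted p = 0.0975) (interval -0.33 to -0.017) and passed with edgeR (adjusted p = 0.0293), and the interval for Psme2 was -0.20 to 0.16. An exon of Emc9 overlaps Psme1.

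Levels were compared between genes only per length, as TPM (counts divided by the length of the union of exons and scaled to a common total). In control libraries the constitutive subunits Psmb5, Psmb6 and Psmb7 had 412 ± 31.9, 303 ± 10.8 and 202 ± 4.72 TPM (SD, n = 2). Their inducible counterparts Psmb8, Psmb9 and Psmb10 had 1.20 ± 0.321, 0.516 ± 0.0492 and 48.5 ± 1.01 TPM. Per length, Psmb10 was at 23.2% and 24.7% of Psmb7 in control, 25.7% and 26.0% with oxaliplatin and 28.2% and 30.0% with cisplatin. Psmb8 and Psmb9 stayed below 1% of Psmb5 and Psmb6 in every library. The log2 ratio of Psmb10 to Psmb7 moved by 0.11 with oxaliplatin and 0.28 with cisplatin, that of Psmb8 to Psmb5 by 0.38 and 0.85, and that of Psmb9 to Psmb6 by -0.16 and -1.41. With 2 libraries against 2 no permutation test of these ratios can pass, so they carry no p. Their SDs within groups were 0.0127 to 0.0638 for Psmb10, 0.175 to 0.504 for Psmb8 and 0.228 to 0.620 for Psmb9.

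**Figure D3:**
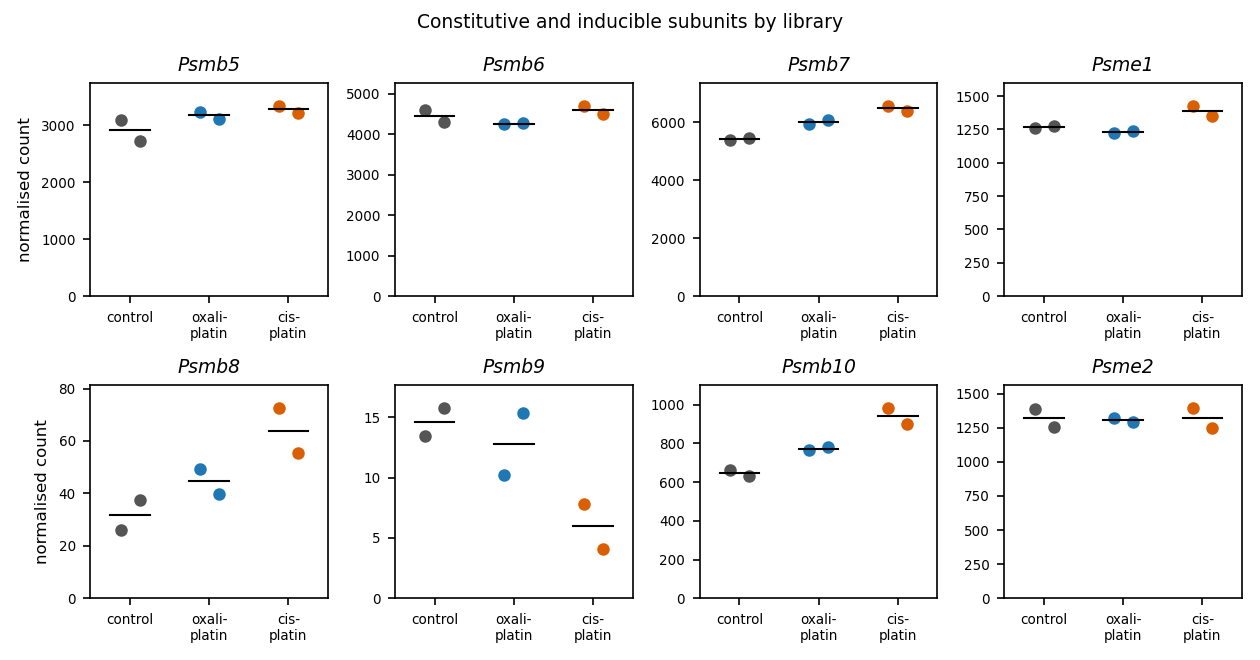
Normalised counts (vertical axes, each from 0) of the constitutive catalytic subunits, the inducible subunits and the activator genes Psme1 and Psme2 in control, oxaliplatin and cisplatin libraries. Each point is 1 library and lines are group means. Psmb10 rises from 634 to 664 in control to 898 to 982 with cisplatin, whereas Psmb9 stays under 16 counts everywhere.

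Of the other regulators, Psme3 (chr11:101316213-101323537), the nuclear activator PA28 gamma, rose with both drugs. It had counts of 2526 and 2551 in control, 3026 and 2964 in oxaliplatin and 3224 and 3451 in cisplatin libraries, with both drug groups above control and cisplatin above oxaliplatin. The rise was 0.24 ± 0.060 (SE, adjusted p = 6.36e-04) with oxaliplatin and 0.39 ± 0.060 (SE, adjusted p = 9.92e-10) with cisplatin, and the difference between the drugs was -0.16 ± 0.059 (SE, adjusted p = 0.0364). Psme3 lost its oxaliplatin call without oxaliplatin replicate 1 (adjusted p = 0.0872). The call between the drugs was lost without control replicate 1 (adjusted p = 0.0825), control replicate 2 (adjusted p = 0.0826), oxaliplatin replicate 1 (adjusted p = 0.240), oxaliplatin replicate 2 (adjusted p = 0.349), cisplatin replicate 1 (adjusted p = 0.0870) or cisplatin replicate 2 (adjusted p = 0.471). Psme4, which encodes the activator PA200, and Psmf1, an inhibitor, did not pass the DESeq2 test in any comparison, with intervals between the drugs of -0.11 to 0.11 and -0.38 to 0.013. EdgeR called Psmf1 higher with cisplatin than in control and lower with oxaliplatin than with cisplatin.

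Nfe2l1 (chr11:96817414-96829968) fell with oxaliplatin. Its counts were 6871 and 7299 in control, 5653 and 5664 in oxaliplatin and 6497 and 6666 in cisplatin libraries. The oxaliplatin libraries were lowest and the control libraries highest, with cisplatin between and no overlap. Its log2 fold change was -0.32 ± 0.047 (SE, adjusted p = 1.97e-10) with oxaliplatin, -0.11 ± 0.047 (SE, adjusted p = 0.0672) with cisplatin and -0.22 ± 0.047 (SE, adjusted p = 5.01e-05) between the drugs. The cisplatin difference passed with edgeR (adjusted p = 0.0388), with TMM scaling (adjusted p = 0.0494), with total-count scaling (adjusted p = 0.00520) and without control replicate 1 (adjusted p = 0.0356). Measured as mRNA, the gene says nothing of the processing that activates the Nrf1 protein.

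Genes that process Nrf1, help the proteasome or carry ubiquitin were followed in 4 lists of 42 genes, of which 41 were found and 40 tested. With oxaliplatin 9 rose and 11 fell, with cisplatin 13 rose and 9 fell, and between the drugs 4 were higher and 12 lower with oxaliplatin. Over all genes tested, 10.7% rose and 9.5% fell with oxaliplatin, 15.7% rose and 12.4% fell with cisplatin, and 8.62% were higher and 11.3% lower between the drugs, which is the background for each of the 4 lists. In each comparison the number called fell whichever of the 6 libraries was left out, and so did the number over all genes.

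In the list of 14 genes of Nrf1 processing and partners, 2 rose and 7 fell with oxaliplatin, 4 rose and 5 fell with cisplatin, and 3 were lower with oxaliplatin than with cisplatin (all genes tested: 10.7% higher and 9.5% lower, 15.7% and 12.4%, and 11.3% lower). Vcp, the ATPase that pulls Nrf1 out of the endoplasmic reticulum membrane, had counts of 23485 and 22096 in control, 16039.5 and 16275 in oxaliplatin and 22640.5 and 22732 in cisplatin libraries. It was lower in the oxaliplatin libraries than in all others, by -0.50 ± 0.038 (SE, adjusted p = 9.83e-36) against control and -0.49 ± 0.038 (SE, adjusted p = 9.50e-35) against cisplatin, while its cisplatin difference was -0.0065 ± 0.038 (SE, adjusted p = 0.925). Reads of Vcp can be shared with its near-identical copy Vcp-rs, so its level is uncertain. Sel1l, a membrane part of the ubiquitin ligase that degrades Nrf1, had 2949 and 3224 in control, 2371 and 2399 in oxaliplatin and 2176 and 2277 in cisplatin libraries and fell with both drugs, by -0.37 ± 0.067 (SE, adjusted p = 5.49e-07) and -0.47 ± 0.067 (SE, adjusted p = 7.37e-11).

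Mafk, a small Maf protein that pairs with Nrf1 and Nrf2 on DNA, had counts of 362 and 387 in control, 583 and 544 in oxaliplatin and 694 and 646 in cisplatin libraries, above control with both drugs. It rose by 0.59 ± 0.13 (SE, adjusted p = 3.79e-05) with oxaliplatin and 0.84 ± 0.13 (SE, adjusted p = 5.41e-10) with cisplatin. Nfe2l2, which encodes Nrf2, had 1690.4 and 1724 in control, 1559 and 1585 in oxaliplatin and 2226 and 2205 in cisplatin libraries, highest with cisplatin. It differed by -0.12 ± 0.067 (SE, adjusted p = 0.200) with oxaliplatin, 0.38 ± 0.066 (SE, adjusted p = 2.04e-07) with cisplatin and -0.50 ± 0.066 (SE, adjusted p = 4.20e-12) between the drugs. With edgeR the oxaliplatin difference passed (adjusted p = 0.0454).

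Of 10 proteasome partners tested, 3 rose and 1 fell with oxaliplatin, 3 rose with cisplatin, and 2 were higher and 3 lower with oxaliplatin than with cisplatin. Pomp, which matures the core, had counts of 2375 and 2219.7 in control, 2234 and 2221 in oxaliplatin and 2799 and 2606 in cisplatin libraries, and Adrm1, a ubiquitin receptor of the cap, had 2306 and 2159.6 in control, 2133 and 2013 in oxaliplatin and 2595 and 2479 in cisplatin libraries. Both were above the other groups with cisplatin. Pomp rose with cisplatin by 0.23 ± 0.068 (SE, adjusted p = 0.00295) and differed between the drugs by -0.28 ± 0.068 (SE, adjusted p = 3.97e-04). Its cisplatin call was lost without control replicate 2 (adjusted p = 0.129) or cisplatin replicate 1 (adjusted p = 0.176), and its call between the drugs without cisplatin replicate 1 (adjusted p = 0.102). Adrm1 rose with cisplatin by 0.18 ± 0.069 (SE, adjusted p = 0.0267) and differed between the drugs by -0.29 ± 0.069 (SE, adjusted p = 2.64e-04). Its cisplatin call was lost without control replicate 2 (adjusted p = 0.313), oxaliplatin replicate 1 (adjusted p = 0.0803), oxaliplatin replicate 2 (adjusted p = 0.0765), cisplatin replicate 1 (adjusted p = 0.311) or cisplatin replicate 2 (adjusted p = 0.114), and its call between the drugs without oxaliplatin replicate 2 (adjusted p = 0.0723) or cisplatin replicate 1 (adjusted p = 0.0675).

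Uchl5, a deubiquitinase of the cap, had counts of 869.6 and 871 in control, 1069 and 1093 in oxaliplatin and 1122 and 1051 in cisplatin libraries, above control with both drugs. It rose by 0.31 ± 0.090 (SE, adjusted p = 0.00350) and 0.32 ± 0.090 (SE, adjusted p = 0.00210), and the interval of the difference between the drugs was -0.18 to 0.17. Uchl5 lost its oxaliplatin call without control replicate 1 (adjusted p = 0.0708), control replicate 2 (adjusted p = 0.0727), oxaliplatin replicate 1 (adjusted p = 0.104) or oxaliplatin replicate 2 (adjusted p = 0.1599). Its cisplatin call was lost without control replicate 1 (adjusted p = 0.0529), control replicate 2 (adjusted p = 0.0577) or cisplatin replicate 1 (adjusted p = 0.149). Akirin2, which brings proteasomes into the nucleus, had 788 and 907 in control, 1058 and 1115 in oxaliplatin and 836 and 850.3 in cisplatin libraries, and Ube3c, a ubiquitin ligase that acts at the proteasome, had 2698 and 2833 in control, 3211 and 3228 in oxaliplatin and 2879 and 2902 in cisplatin libraries. Both were highest with oxaliplatin. Akirin2 rose by 0.36 ± 0.10 (SE, adjusted p = 0.00350) against control, lost without control replicate 1 (adjusted p = 0.162), oxaliplatin replicate 1 (adjusted p = 0.0624) or oxaliplatin replicate 2 (adjusted p = 0.167). Ube3c rose by 0.22 ± 0.056 (SE, adjusted p = 8.35e-04), lost without control replicate 1 (adjusted p = 0.0687), oxaliplatin replicate 1 (adjusted p = 0.0793) or oxaliplatin replicate 2 (adjusted p = 0.0894).

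**Figure D4:**
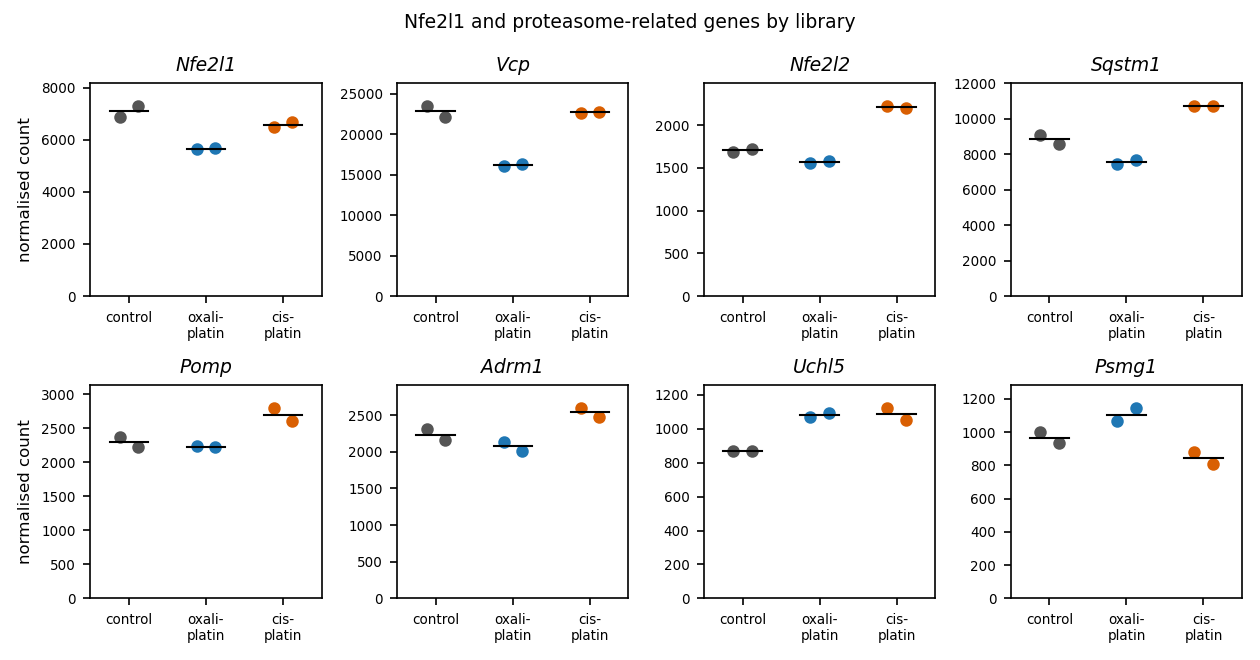
Normalised counts (vertical axes, each from 0) of Nfe2l1, genes of Nrf1 processing, proteasome partners, Sqstm1 and Psmg1 in control, oxaliplatin and cisplatin libraries. Each point is 1 library and lines are group means. Nfe2l1 and Vcp are lowest with oxaliplatin, Nfe2l2, Sqstm1, Pomp and Adrm1 are highest with cisplatin, and Psmg1 is highest with oxaliplatin.

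Of 12 ubiquitin genes and shuttle factors, 4 rose and 3 fell with oxaliplatin, 5 rose and 3 fell with cisplatin, and 2 were higher and 6 lower with oxaliplatin than with cisplatin. Sqstm1 encodes p62, which hands ubiquitin-tagged cargo to autophagy, and had counts of 9091 and 8587 in control, 7421 and 7678 in oxaliplatin and 10692 and 10719 in cisplatin libraries. It was below control with oxaliplatin and above it with cisplatin, by -0.23 ± 0.044 (SE, adjusted p = 3.61e-06) and 0.28 ± 0.044 (SE, adjusted p = 4.51e-09), and the drugs differed by -0.50 ± 0.044 (SE, adjusted p = 2.19e-28). Ubb, a polyubiquitin gene, had 18352 and 17187 in control, 19799 and 19493 in oxaliplatin and 21738 and 21357 in cisplatin libraries and rose with both drugs, by 0.14 ± 0.040 (SE, adjusted p = 0.00207) and 0.28 ± 0.040 (SE, adjusted p = 7.84e-11). The oxaliplatin call of Ubb was lost without control replicate 2 (adjusted p = 0.0711) or oxaliplatin replicate 1 (adjusted p = 0.117).

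The shuttle factors Rad23b and Ubqln2, which bring tagged proteins to the cap, moved in opposite directions. Rad23b had 7570.03 and 7673 in control, 9216 and 9244 in oxaliplatin and 9034 and 8767 in cisplatin libraries and rose by 0.28 ± 0.039 (SE, adjusted p = 3.32e-11) and 0.22 ± 0.039 (SE, adjusted p = 1.19e-07). Ubqln2 had 2325 and 2163 in control, 1666 and 1611 in oxaliplatin and 1830.3 and 1889.9 in cisplatin libraries and fell, with differences of -0.45 ± 0.071 (SE, adjusted p = 6.54e-09) and -0.27 ± 0.071 (SE, adjusted p = 9.02e-04). The cisplatin call of Ubqln2 was lost without control replicate 1 (adjusted p = 0.0806) or cisplatin replicate 1 (adjusted p = 0.0824).

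Of 4 tested interferon-related regulators and peptide transporters, 0 passed with oxaliplatin (with edgeR Irf1 passed, adjusted p = 0.0220), and with cisplatin 1 rose and 1 fell. Irf1, a transcription factor of immunoproteasome genes, had counts of 1157 and 1128 in control, 1303 and 1271 in oxaliplatin and 1432 and 1397 in cisplatin libraries, above control with both drugs. It rose with cisplatin by 0.31 ± 0.079 (SE, adjusted p = 6.24e-04), a call lost without cisplatin replicate 1 (adjusted p = 0.0747). Tap2, a subunit of the peptide transporter, had 178 and 172 in control, 137 and 159.6 in oxaliplatin and 119.6 and 111 in cisplatin libraries, lowest with cisplatin. Its cisplatin difference was -0.61 ± 0.23 (SE, adjusted p = 0.0281). The call was lost with the replicate block (adjusted p = 0.127), with only the 4 libraries compared (adjusted p = 0.0520) and whichever library was left out.

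The remaining members were not measurable or are not subunits. Psma8 and Psmb11, subunits of the testis and thymus proteasomes, had 0 to 2.79 normalised counts and were not tested. Psmc3ip, a meiotic recombination factor that matched by symbol, and Psme2b, a retrocopy of Psme2, did not pass the DESeq2 test in any comparison, and edgeR called Psmc3ip higher with oxaliplatin than in control. Counts of 23 of the 51 genes were not whole numbers in every library, as happens where the counting divides reads between similar genes, and 4 noncoding genes that carry the names of proteasome pseudogenes had at most 4.84 counts.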

How the data were processed

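Poly(A) RNA of TRAMP-C2 cells was sequenced in 6 libraries, 2 per group, prepared with a stranded mRNA kit, and groups followed the sample labels. The authors deposited RSEM expected counts for each gene, without scaling between libraries. RSEM splits a read between the genes it fits. The submitters' processing notes name STAR 2.5.3a, RSEM 1.3.0 and GRCm38.p6 without their roles, another counting program appears in the methods of the study, and the strand setting is not given in the sources used here. Of 54446 identifiers, 54409 matched GENCODE M21.

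After rounding to integers, the 14956 genes that reached 10 counts in 2 or more libraries were tested with DESeq2 1.42.0 (R 4.3.3, two-sided Wald test, group as the only term, all 6 libraries, Benjamini-Hochberg adjustment, threshold 0.05, independent filtering at level 0.1). TPM was computed from the same counts and the union exon length. The members, roles, lists and tests were chosen with earlier results of these data known. Named were the immunoproteasome and catalytic genes and Nfe2l1, the 3 largest called rises and falls in each comparison, genes called in opposite directions against control, and up to 2 companion genes per list and comparison. Psmd14 was added after its values were seen. Some companion and marker genes are not reported here.

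Alternatives were edgeR 4.0.16 (quasi-likelihood), TMM and total-count scaling, 2 other filters, no independent filtering, the replicate number as a block, only the 4 libraries compared, the longest transcript as length, and leaving out each library. A crossed block was chosen after seeing the data. Fits were tested on simulated data. With 2 libraries a group the precision is limited.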

Additional observations from a re-analysis of the deposited data

How the results depend on the processing

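No call of a named gene turned its direction past the threshold. With edgeR the counts of proteasome genes were 22 (6 higher, 16 lower) with oxaliplatin, 26 (24 higher, 2 lower) with cisplatin and 36 (1 higher, 35 lower) between the drugs, and over all genes 4618, 6112 and 4773, against 3028, 4203 and 2977 with DESeq2. Total-count scaling gave 3 higher and 16 lower, 14 higher and 3 lower, and 1 higher and 27 lower. It also moved the median log2 fold changes with cisplatin to 0.11 (all members), 0.12 (core), 0.063 (cap) and 0.079 (immunoproteasome), and those between the drugs to -0.17 (all members) and -0.21 (cap). Requiring 10 counts in every library moved the immunoproteasome medians to 0.12 with oxaliplatin, 0.33 with cisplatin and -0.23 between the drugs, since Psmb9 then drops out. With the longest transcript as length, control levels were 326 TPM for Psmb5, 466 for Psmb6, 192 for Psmb7, 1.68 for Psmb8 and 49.9 for Psmb10.

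The labels do not say whether the replicate numbers pair the libraries. Deviations from group means correlated at 0.0715 (control and oxaliplatin), -0.0477 (control and cisplatin) and -0.191 (oxaliplatin and cisplatin) over 10731 genes. With 2 libraries a group, these correlations cannot decide it. The replicate block gave 14, 17 and 24 called proteasome genes and 1958, 2833 and 1861 over all genes. Crossing the numbers in the 4 drug libraries gave 20 calls between the drugs, against 19 with the block as numbered and 32 without it.

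Leaving out each library in turn, a lone library being assumed to vary like the other groups, gave 5 to 14 called proteasome genes with oxaliplatin, 6 to 18 with cisplatin and 19 to 30 between the drugs. Companion genes called were 8 to 15, 12 to 17 and 9 to 15, and all genes 1213 to 2159, 2089 to 3021 and 1184 to 2453. Medians with oxaliplatin ranged over -0.077 to -0.027 (all members), -0.12 to -0.040 (core), -0.15 to -0.090 (cap), -0.040 to 0.10 (assembly) and -0.034 to 0.068 (immunoproteasome). With cisplatin they were 0.11 to 0.17, 0.098 to 0.18, 0.098 to 0.13, 0.060 to 0.17 and 0.087 to 0.17, and between the drugs -0.22 to -0.20, -0.29 to -0.22, -0.26 to -0.21, -0.14 to 0.038 and -0.21 to -0.13. The ratio of Psmb8 to Psmb5 moved over 0.021 to 0.73 with oxaliplatin and 0.49 to 1.20 with cisplatin, that of Psmb9 to Psmb6 over -0.45 to 0.13 and -1.85 to -0.97, and that of Psmb10 to Psmb7 over 0.061 to 0.15 and 0.23 to 0.32. The cause of these changes was not tested beyond the smaller number of libraries.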
